A study of Drosophila melanogaster with 4 samples.

Results

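The regions described here are H3K79me2-enriched clusters of Drosophila melanogaster, chosen by position. Some lie on chromosome 4, on the unplaced sequence U, or on the 6 scaffolds named for heterochromatin (2LHet, 2RHet, 3LHet, 3RHet, XHet and YHet). The others lie at the centromere-proximal end of an assembled arm. The last class was taken as clusters lying wholly in the last 2 Mb of arms X, 2L and 3L or in the first 2 Mb of arm 3R. They numbered 251 of 6126 enriched clusters in ChIP replicate 1, 250 of 4839 in ChIP replicate 2, and 291 of 5971 in a list deposited for the whole series. Only position chose them, so their width, score, spacing and agreement between replicates were free to vary. The proximal arm ends held 201 of the 251 clusters of replicate 1 and 187 of the 250 of replicate 2. Chromosome 4 held 24 and 35, the Het scaffolds 14 and 17, and U 12 and 11.

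Chromatin immunoprecipitation and sequencing (ChIP-seq) was done on wild-type larvae of the third instar, of the Oregon-R strain, with a rabbit polyclonal antibody from Abcam against H3K79me2. The series holds 2 ChIP samples and 2 input samples of chromatin DNA without immunoprecipitation, all of that strain, genotype and stage. The labels name no tissue and no sex, so each value is an average over the tissues of larvae, and whether each replicate was its own collection of larvae is not stated, so a spread between them may be technical. Values of the inputs were not analysed here, and the lists hold no read counts, so the depth behind a cluster is unknown.

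In flies, the enzyme grappa, a counterpart of yeast Dot1, methylates lysine 79 of histone H3, and genes being transcribed typically carry its dimethyl form over their bodies. Heterochromatin is the compact, repeat-rich chromatin next to centromeres and on the Y chromosome, and it carries methylated H3K9 and the protein HP1a. A small number of genes, such as light on the left arm of chromosome 2, are known to be active inside it. Chromosome 4 is short and mixes genes with repeats. Its genes are known to be bound by HP1a and by POF, a protein that coats this chromosome, and many of them are active. Positions follow FlyBase release 5. No cluster was matched to a gene, because the gene table used here is of Release 6. That table places 80 protein-coding genes on chromosome 4.

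Enriched clusters were sparse in nearly all of these sequences, and the proximal end of 3R was the exception. The covered share is the percentage of a sequence's bases that lie inside clusters. It was 5.76% ± 2.73 on chromosome 4, 0.374% ± 0.0622 on the Het scaffolds and 0.238% ± 0.0195 on U, against 27.2% ± 1.18 on the distal arms (each SD, n = 2). The replicates were far apart on chromosome 4, at 3.82% in replicate 1 and 7.69% in replicate 2, or 0.136 and 0.291 of their distal shares. The distal arms are the rest of X, 2L, 3L and 3R together with the whole of 2R. The start of 2R was not set apart, so they include the centromere-proximal sequence of 2R. Without 2R, the mean ratio to the distal share was 0.218 on chromosome 4 and 0.465 at the arm ends, against 0.214 and 0.456. Widths, spacing and agreement were not recomputed without 2R. Among the proximal ends, X was covered at 7.96% ± 0.301, 2L at 9.56% ± 0.602 and 3L at 3.26% ± 0.115 (each SD, n = 2). On 3R the share was 28.9% ± 1.57 (SD, n = 2), which lies within the range of the distal arms. In each replicate the other 6 of these 7 regions were below every distal arm, the lowest of which was 2L at 25.4% in replicate 1 and 24.2% in replicate 2. A two-sided exact test over 2 replicates cannot go below p = 0.5, so no difference here can pass a threshold of 0.05 by that test, and the values are given as a description.

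**Figure D1:**
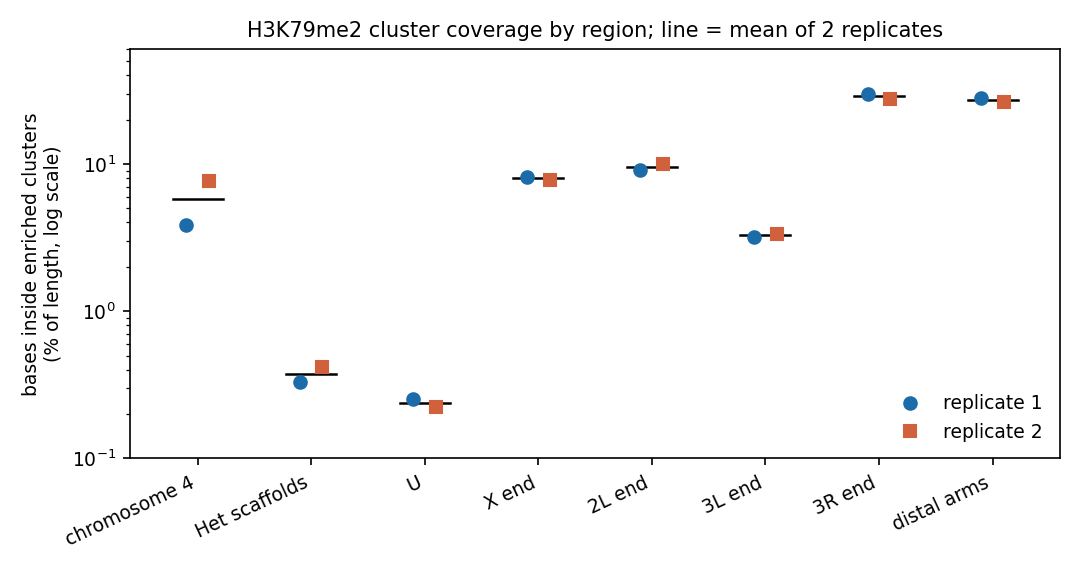
Share of bases inside enriched clusters (vertical axis, percent of length, log scale) for chromosome 4, the Het scaffolds together, U, the 4 proximal arm ends and the distal arms. Circles are replicate 1, squares replicate 2 and lines their mean. The Het scaffolds and U sit below 1%, chromosome 4 and the X, 2L and 3L ends between 3.18% and 9.99%, and the 3R end beside the distal arms.

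Set against the rest of their own arm, the ends of X, 2L and 3L differed by -15.3 to -24.6 percentage points as means, while the 3R end was above it. The X end was covered at 8.17% and 7.75% in replicates 1 and 2, against 27.7% and 26.4% on the rest of X. The 2L end had 9.14% and 9.99%, against 25.4% and 24.2% on the rest of 2L. The 3L end had 3.18% and 3.35%, against 28.5% and 27.2% on the rest of 3L. On 3R the end had 30.0% and 27.7%, against 28.0% and 26.1% on the rest of 3R, a difference of 1.84 percentage points ± 0.213 (SD, n = 2). When the distal arms were tiled into 53 windows of 2 Mb, none was covered as little as the 3L end in either replicate. The X and 2L ends each had 1 window covered no more than they were, and the 3R end had 31 in replicate 1 and 29 in replicate 2. The tiling took in 2R, whose centromere-proximal start was not set apart. Which arm held a window as low as the X and 2L ends was not examined, so such a window need not be distal.

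Distance from the arm end separated the arms further. On 3L the 1000 kb nearest the end held no cluster of replicate 1 and was covered at 0.365% in replicate 2, with 0 sites found in both. Its clusters lay far out: from 1500 to 2000 kb the share was 12.3% in replicate 1 and 10.8% in replicate 2, with 13 of the 14 shared sites of this end. On 2L the share was 0.779% and 1.69% in the 500 kb nearest the end, 5.93% and 7.74% from 1000 to 1500 kb, and 23.8% and 25.2% from 1500 to 2000 kb. By stretches of 500 kb, coverage of 2L was thus lowest beside the end and highest farthest out. From 500 to 1000 kb it was 6.02% and 5.35%, so in replicate 1 the climb was not even. By bins of 250 kb, the lowest was not the bin beside the end (1.56% and 1.97%) but the next, at 0% and 1.41%. The outermost 250 kb of the 2L end, at 42.2% and 41.4%, exceeded the share on the rest of that arm.

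The X end showed no such climb inside the 2 Mb. Its covered share was 5.90% and 5.26% in the 500 kb nearest the end, 14.9% and 14.4% from 1000 to 1500 kb, and only 2.59% and 2.30% from 1500 to 2000 kb. The lowest bin of 250 kb on X, at 1.64% and 1.63%, was therefore the farthest from the end. On 3R the 500 kb nearest the end was already covered at 28.8% and 24.3%, and the stretch from 1000 to 1500 kb reached 54.8% and 52.3%. On 3R both replicates were highest in that stretch and lowest from 1500 to 2000 kb, at 16.1% and 14.6%.

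**Figure D2:**
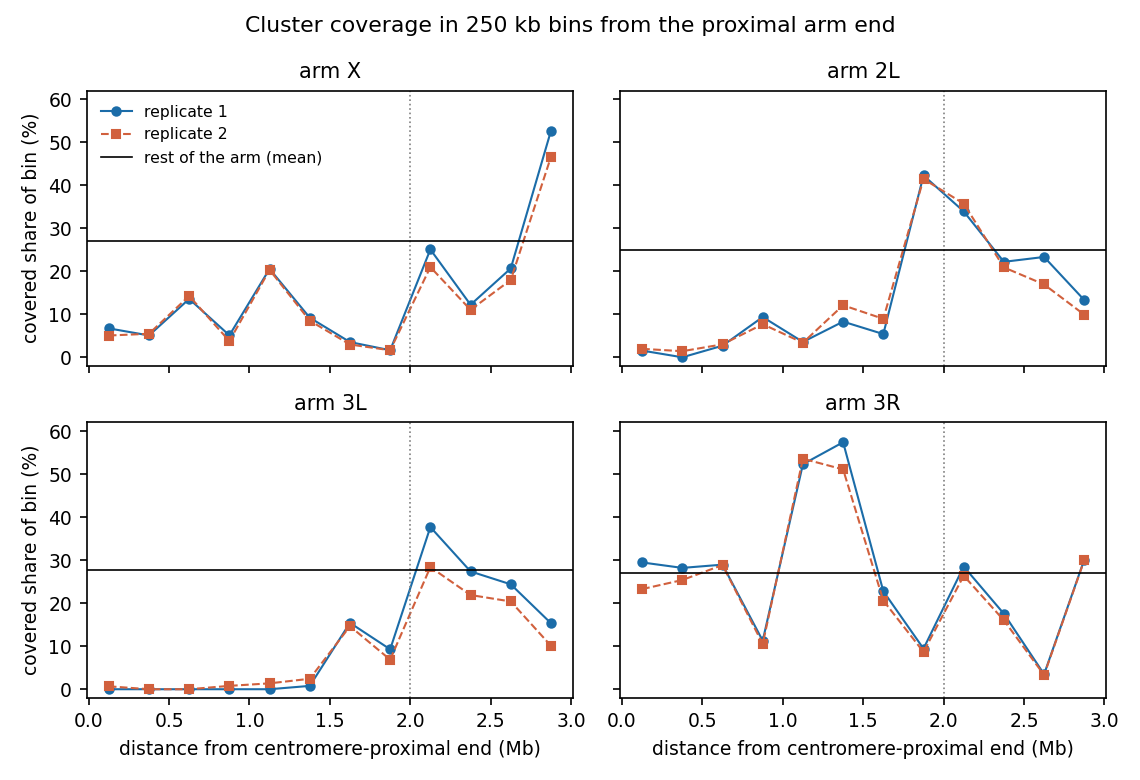
Covered share (vertical axis, percent) in 250 kb bins by distance from the centromere-proximal end (horizontal axis, Mb) on arms X, 2L, 3L and 3R. Circles are replicate 1 and squares replicate 2, the horizontal line is the mean of the replicates on the rest of the arm, and the dotted line marks 2 Mb. The bins of 3L stay under 3% up to 1.5 Mb, while 3R starts at 29.5% and 23.3%.

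The 2 Mb line itself cut no cluster of either replicate, and 1 cluster of the whole-series list, 3613 bp wide on 2L, lay across it. The nearest cluster inside the line was 4100 and 4087 bp wide on X in replicates 1 and 2, and the nearest outside was 4316 and 4242 bp. On 2L the widths were 2007 and 2922 bp inside, and 4276 and 9043 bp outside. Those of 3L were 4387 and 3644 bp inside, and 1632 and 1437 bp outside. On 3R they were 5248 and 3168 bp inside, and 3573 and 2167 bp outside. In the 250 kb just beyond the line the covered share, as a mean of the replicates, was 23.0% on X, 34.8% on 2L, 33.0% on 3L and 27.4% on 3R. Just inside it was 1.64% on X, 41.8% on 2L, 8.07% on 3L and 9.05% on 3R, so coverage was lower inside the line than outside it on X, 3L and 3R and higher inside it on 2L.

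Clusters called in both replicates reached almost to the assembled end on X, 2L and 3R and stopped far from it on 3L. A shared site is a run of overlapping clusters with at least 1 base common to both replicates, and its extent is that of both calls together. The site nearest the end of X ran from 22413526 to 22416890, 5.94 kb from the last base, and 98.7% of it was common to both replicates. On 2L it ran from 22959237 to 22961660, 49.9 kb from the end. On 3R a site of 10.2 kb began at the very first base of the arm and ran to 10193, with 10.2 kb of it in replicate 1 and 9.62 kb in replicate 2. On 3L the nearest shared site, from 23086893 to 23089146, lay 1454 kb from the end and ranked at percentile 3.18 by score in replicate 1 and 31.5 in replicate 2, where 100 is the highest score of the list. Replicate 2 alone had a cluster nearer, from 24530400 to 24532099, at 11.5 kb from the end of 3L and at percentile 2.15 of its list.

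The widest shared sites at the arm ends were on 3R, and those of 3L were the shortest. On 3R they ran from 614693 to 641124 (26.4 kb), from 1465625 to 1488435 (22.8 kb) and from 898617 to 917207 (18.6 kb). The second of these was a single cluster in each replicate and 99.4% of it was common, whereas the first was split into 3 clusters of replicate 1 and 2 of replicate 2. The 2L end followed with 21236539 to 21256632 (20.1 kb), 21160614 to 21173261 (12.6 kb) and 21030984 to 21042194 (11.2 kb), all beyond 1750 kb from its end. On X they were 21854519 to 21867798 (13.3 kb), 21215795 to 21228207 (12.4 kb) and 21874862 to 21886323 (11.5 kb). On 3L they were 22856389 to 22867302 (10.9 kb), 22867721 to 22874474 (6.75 kb) and 22731466 to 22737384 (5.92 kb), the first pair lying side by side.

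Long cluster-free stretches broke up the ends, and most stood in both replicates. The longest on X ran from 20532617 to 20900890 with no cluster of either replicate (368 kb), which was 18.4% of the 2 Mb. On 3R it ran from 312704 to 464054 (151 kb). On 3L no cluster of either replicate lay between 23709795 and 24530399 (821 kb), and replicate 1 was empty from 23089043 to the last base (1455 kb). The 2L end differed between replicates. The longest empty stretch of replicate 1 measured 400.003 kb, from 22474202 to 22874204, and that of replicate 2 measured 182 kb, from 21837041 to 22019254. The longest on 2L with no cluster of either replicate lay inside the latter, from 21837070 to 22019032 (182 kb).

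Clusters were narrower on chromosome 4, the Het scaffolds and U than on the distal arms. Median width on chromosome 4 was 2043.5 bp in replicate 1 and 2542 bp in replicate 2, against 3397 and 3884 bp on the distal arms. On the Het scaffolds it was 2056.5 and 2123 bp, and on U 2017 and 1958 bp. Clusters of at least 5 kb made up 34.3% and 40.2% of the distal lists, but there was none on the Het scaffolds or U in either replicate. Chromosome 4 had 0 in replicate 1 and 6 of 35 in replicate 2. The differences from the distal median were -1348 bp ± 8.13 on chromosome 4, -1551 bp ± 297 on the Het scaffolds and -1653 bp ± 386 on U (each SD, n = 2), narrower in both replicates.

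At the proximal ends widths were close to those of the distal arms as a whole but varied by arm. The ends together had a median of 3801 bp in replicate 1 and 3657 bp in replicate 2, so the difference from the distal median was 404 bp in one and -227 bp in the other, within their own spread. The 3R end stood above the distal median in both replicates, at 4674 and 4575 bp, and so did the X end, at 3529 and 4160.5 bp. The 3L end stood below it in both, at 2828 and 2380 bp. So did the 2L end, at 3375 and 3086.5 bp, with a difference of only -22 bp in replicate 1. In the whole-series list the X end was below the distal median, at 3081 against 3451 bp, while the 3R, 2L and 3L ends kept their side. Clusters of 10 kb or more numbered 17 and 15 at the 3R end, against 5 and 6 at the other 3 ends together.

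Gaps between neighbouring clusters were longest on U and the Het scaffolds and shorter on the arm ends, where the order of gaps did not follow the order of coverage. U joins unplaced pieces in no known order, so its gaps are not distances on a chromosome. The median gap between neighbouring clusters was 15.4 kb in replicate 1 and 17.8 kb in replicate 2 on chromosome 4, against 2.34 and 3.74 kb on the distal arms. It was 91.3 and 131 kb on the Het scaffolds, from 8 and 11 gaps, and 255 and 491 kb on U, from 11 and 10. The 3R end had 3.16 and 3.79 kb, close to the distal values. Gaps were 4.12 and 4.65 kb at the X end, 8.40 and 13.8 kb at the 2L end, and 4.64 and 16.9 kb at the 3L end. Density was likewise 17.8 and 25.9 clusters per Mb on chromosome 4 and 1.51 and 1.83 per Mb on the Het scaffolds, against 52.9 and 41.3 per Mb on the distal arms.

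Of replicate 1 clusters in these sequences, 84.5% had at least 1 base in a cluster of replicate 2 (212 of 251, Wilson 95% interval 79.5 to 88.4), against 84.0% of all replicate 1 clusters, so this share was near the background. Of replicate 2 clusters, 82.0% had a base in replicate 1 (205 of 250, interval 76.8 to 86.3), against 94.8% of all replicate 2 clusters, and here the interval lay below the background. Such intervals take clusters as independent and cover only counting error. The shortfall was largest on chromosome 4, where 17 of the 35 replicate 2 clusters were found in replicate 1, or 48.6% (interval 33.0 to 64.4). In the other direction 19 of 24 were found, or 79.2% (59.5 to 90.8), whose interval holds the background. On U the shares were 7 of 12 and 7 of 11, with intervals from 32.0 to 80.7 and from 35.4 to 84.8, both below their backgrounds. On the Het scaffolds they were 13 of 14 and 13 of 17, and only the second interval, from 52.7 to 90.4, lay below its background.

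Agreement at the arm ends differed by arm. All 4 together had 173 of 201 and 168 of 187, with intervals from 80.6 to 90.2, which holds its background, and from 84.7 to 93.4, which does not. At the 3R end 85.0% and 96.6% of the clusters of replicates 1 and 2 were found in the other, and at the X end 85.4% and 97.1%. The 2L end had 90.7% and 79.5%, and the 3L end 82.4% and 70.0%. On these arms it was thus replicate 2 that held more clusters of its own. For each single end, the replicate 1 interval held the background of 84.0%. In replicate 2 the intervals of 2L (65.5 to 88.8) and 3L (48.1 to 85.5) lay below the background of 94.8%, and those of X and 3R held it. The Jaccard index, the bases common to both replicates over those covered by either, was 0.376 on chromosome 4, 0.641 on the Het scaffolds and 0.482 on U, against 0.822 on the distal arms. It was 0.827 at the 3R end, 0.740 at the X end, 0.736 at the 2L end and 0.670 at the 3L end. The widest cluster of the ends found in replicate 1 alone was on 2L, 21224562 to 21230121 (5.56 kb), and that in replicate 2 alone was on X, 20994722 to 20997882 (3.16 kb).

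Chromosome 4 held 17 shared sites, strung from 71129 to 1055332. They spanned 984 kb, their median gap was 50.9 kb, and the longest gap between neighbours was 239.5 kb. The middle part, from 450620 to 901238, held 9 of them, with a covered share of 6.26% in replicate 1 and 10.9% in replicate 2. The parts of equal length before and after it held 4 each, with 2.29% and 6.23% before and 2.92% and 5.91% after.

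The widest shared site of chromosome 4 ran from 572172 to 579229. Replicate 2 called it as a single cluster of 7.06 kb, and replicate 1 as 2 clusters summing to 3.40 kb. The next ran from 71129 to 76793, at 5.67 kb in replicate 2 and 3.78 kb in replicate 1. In both, the replicate 1 calls lay inside the replicate 2 call. The site from 589775 to 595338 measured 5.56 kb in replicate 2 and 2.26 kb in replicate 1. That from 522340 to 527510 measured 5.17 kb in replicate 2 and 3.35 kb in replicate 1. That from 676341 to 681457 measured 5.02 kb in replicate 2 and 3.54 kb in replicate 1. At 12 of the 17 sites the whole extent was under 5 kb, from 2366 to 4116 bp.

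Replicate 2 gave the wider call at every one of the 17 shared sites of chromosome 4. On the distal arms this held for 34.3% of shared sites (1352 of 3943), and most distal sites were wider in replicate 1. The ratio of replicate 2 to replicate 1 width had a median of 1.27 on chromosome 4, against 0.969 on the distal arms. The wider call was in replicate 2 at 17 of 17 sites when all clusters were used, at 15 of 15 with neighbours under 1 kb apart joined, and at 7 of 7 with only clusters at or above the median score of their list. Score percentile, the rank of the authors' score within its own list with 100 the highest, was higher in replicate 2 at 13 of the 17, or 76.5%, against 29.3% of distal sites. The median percentile of all chromosome 4 clusters was 19.6 in replicate 1 and 51.4 in replicate 2. With 2 replicates, this measures how these samples differ and nothing about a condition.

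**Figure D3:**
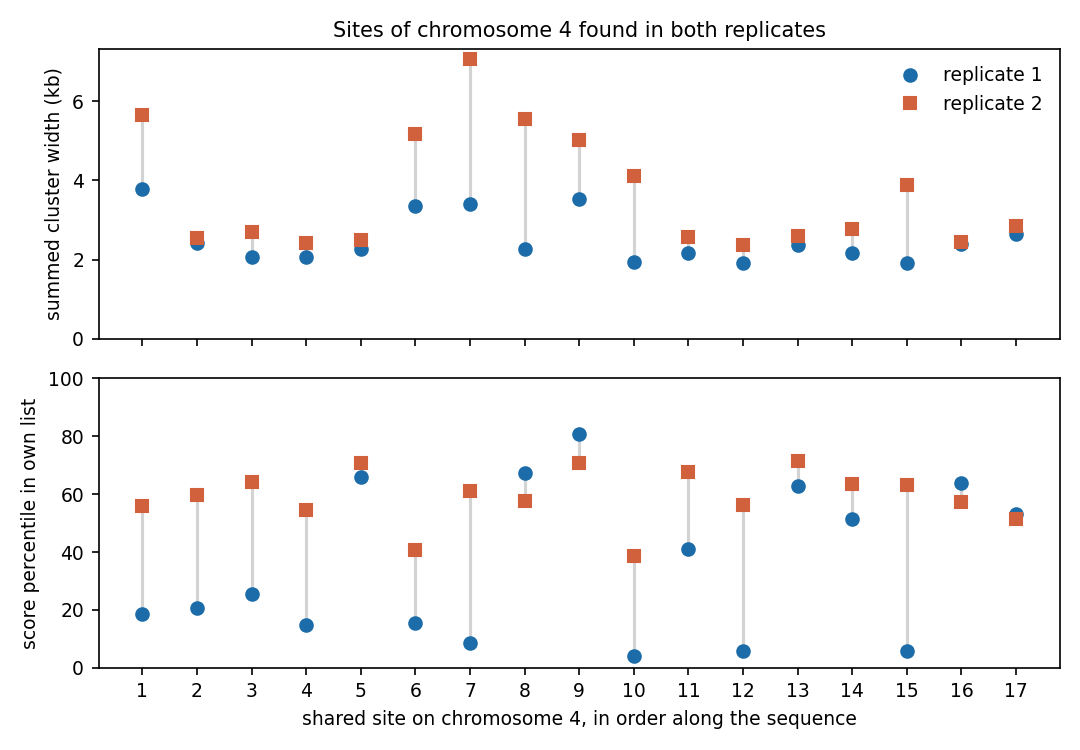
The 17 sites of chromosome 4 found in both replicates, in order along the sequence (horizontal axis), with the summed width of their clusters in kb (upper panel) and their highest score percentile within the list (lower panel). Circles are replicate 1 and squares replicate 2. Replicate 2 lies above replicate 1 in width at all 17 sites and in score percentile at 13.

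The same direction appeared on some of the other sequences and not on the rest. Replicate 2 was the wider at both shared sites of 2LHet and all 3 of 2RHet, at 2 of 4 on 3LHet, and at 24 of 35 (68.6%) at the 2L end. It was the narrower at the single sites of 3RHet and YHet, at both sites of XHet and at all 7 of U. The X end had 12 of 32 (37.5%), the 3L end 5 of 14 (35.7%) and the 3R end 22 of 78 (28.2%), near the distal share. The counts on the scaffolds are small, and no input or depth value was analysed here to set beside them.

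**Figure D4:**
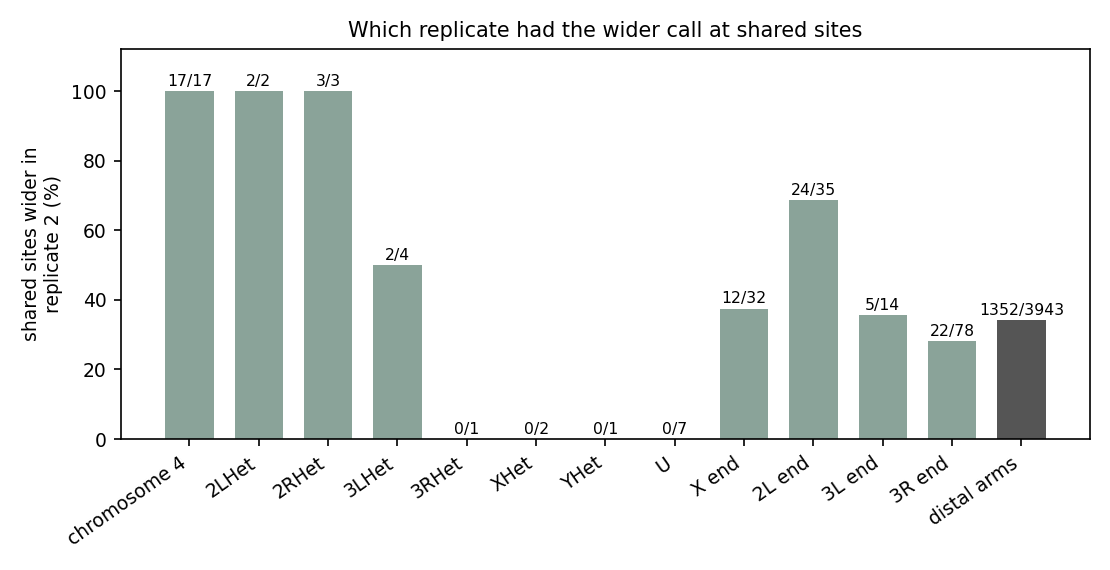
Percentage of shared sites at which the summed cluster width was larger in replicate 2 (vertical axis), by sequence, with the counts above the bars. Chromosome 4 stands at 17 of 17, 2LHet and 2RHet at all of their few sites, U at 0 of 7, and the dark bar of the distal arms at 34.3%.

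The clusters of chromosome 4 found in replicate 2 alone were 18, and those in replicate 1 alone were 5. The widest in replicate 2, from 89651 to 94739, measured 5.09 kb and stood at percentile 63.5 of its list. The widest in replicate 1, from 1325587 to 1327604, measured 2.02 kb at percentile 43.1. Median width of the clusters found alone was 2075 bp in replicate 2 and 1940 bp in replicate 1, against 2772 and 2157 bp for those shared, so in each replicate the clusters found alone were the narrower. The longest stretch with no cluster of either replicate ran from 226686 to 328146 (101 kb).

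The Het scaffolds carried 13 shared sites, all of them short, with extents from 1949 to 3122 bp. In replicate 1 only the YHet site was above the middle of the score ranks, and in replicate 2 this held for 4 sites, that on YHet, 1 on 2RHet and 2 on 3LHet. The single YHet site, from 304703 to 307721, stood highest, with 3.02 kb at percentile 75.6 in replicate 1 and 2.81 kb at percentile 81.3 in replicate 2. YHet is the assembled part of the Y chromosome, which is known to carry a few male fertility genes. XHet had sites from 59988 to 63109, at percentiles 48.4 and 42.7, and from 75839 to 78544, at 39.8 and 15.4. A further XHet cluster, from 84428 to 86340, was in replicate 1 alone.

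On the autosomal scaffolds every shared site was under percentile 30 in replicate 1. On 3LHet they ran from 593991 to 596637, 701136 to 703311, 708179 to 710342 and 2397272 to 2399833, at percentiles of 19.6 to 28.9 in replicate 1 and 1.57 to 54.9 in replicate 2. On 2RHet they ran from 390599 to 392636, 469842 to 472478 and 2901371 to 2903754, at 2.11 to 4.41 in replicate 1 and 9.20 to 58.0 in replicate 2. Those of 2LHet ran from 34450 to 36598 and from 167511 to 169555, at 2.90 and 3.31 in replicate 1 and 12.7 and 14.8 in replicate 2. The 3RHet site ran from 1934881 to 1936829, at 10.4 and 1.59. With only clusters at or above the median score, 1 of these 13 sites was left, that on YHet. The widest cluster found alone on these scaffolds was on 2RHet from 198585 to 201375 (2.79 kb), in replicate 2.

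Between these sites the scaffolds were nearly empty. On 2RHet no cluster of either replicate lay between 472479 and 2901370, 73.9% of the scaffold. On 3LHet the stretch from 710343 to 2243146 was empty, and on 3RHet that from the first base to 1934880. The largest covered share of a scaffold was on XHet, the shortest at 0.204 Mb, with 3.79% in replicate 1 and 2.46% in replicate 2. No source used here says how reads matching several places were handled, and repeats where reads cannot be placed count as uncovered.

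U differed from the Het scaffolds in score. Its clusters were as narrow, yet their median percentile was 53.7 in replicate 1 and 57.2 in replicate 2, against 16.6 and 15.4 on the Het scaffolds. Its 7 shared sites overlapped closely, with a median of 94.4% of their extent common to both replicates, against 78.5% on chromosome 4 and 88.6% on the Het scaffolds. The site from 5541060 to 5543191 stood at percentiles 99.8 and 98.3 over only 2.13 kb. That from 7541894 to 7544696 stood at 99.7 and 97.6 over 2.80 kb, and that from 6383933 to 6387355 at 97.8 and 96.7 over 3.42 kb. These 3 short sites were thus among the highest scores of both lists. The others ran from 5831756 to 5833730, 6013826 to 6015945, 8907479 to 8909636 and 8955070 to 8957236, at percentiles of 40.4 to 86.2 in replicate 1 and 37.1 to 64.4 in replicate 2. Among U clusters found in a single replicate, the widest spanned 7285098 to 7287150 (2.05 kb) in replicate 1 and 4924998 to 4926955 (1.96 kb) in replicate 2. U is a set of unplaced pieces joined in no known order, so gaps on it are not distances on a chromosome.

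In the whole-series list, 69.1% of the clusters in these sequences had a base in both replicates (201 of 291, interval 63.5 to 74.1), against 71.0% of all its clusters, which was near the background. By class the share was 19 of 35 on chromosome 4, 13 of 20 on the Het scaffolds, 7 of 19 on U and 162 of 217 at the arm ends. The intervals of chromosome 4, from 38.2 to 69.5, and of U, from 19.1 to 59.0, lay below the background. Those of the Het scaffolds and the arm ends held it. Clusters with a base in neither replicate were 0 of 35 on chromosome 4, where a count of 0 allows up to 9.89% by the same interval, 4 of 20 on the Het scaffolds and 4 of 19 on U, against 9.81% of the whole list. The intervals for the last pair ran from 8.07 to 41.6 and from 8.51 to 43.3 and hold the background.

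The 5 highest whole-series scores in these sequences mixed both kinds. The top one, from 1013134 to 1015126 on 2RHet, ranked 1 of all 5971 whole-series clusters and was in neither replicate list. It was followed by U from 5541044 to 5543332 and U from 7541920 to 7544698, which ranked 19 and 32 in the whole list and lay over at least 91.3% of their length in clusters of each replicate. The next, on 3R from 1304530 to 1310448 and from 1080396 to 1085900, were 5.92 and 5.51 kb wide and covered over at least 89.5% in each replicate. The widest whole-series clusters of the arm ends were 614926 to 641368 on 3R, 21236548 to 21256626 on 2L, 21215770 to 21228192 on X and 22856388 to 22867310 on 3L, at 26.4, 20.1, 12.4 and 10.9 kb, each covered over at least 91.3% in both replicates. The widest of chromosome 4, 71366 to 76396, measured 5.03 kb, with 75.2% of it in replicate 1 and all of it in replicate 2. Those of the Het scaffolds and U were 1.95 to 3.47 kb wide: 167514 to 169538 on 2LHet, 469992 to 472470 on 2RHet, 594020 to 596638 on 3LHet, 1934870 to 1936814 on 3RHet, 59998 to 63086 on XHet, 304644 to 307734 on YHet and 6383934 to 6387402 on U. All 7 lay on sites shared by both replicates.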

How the data were processed

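Per the labels' protocols, chromatin of larvae was crosslinked with formaldehyde, sonicated and immunoprecipitated. Per the submitters' processing notes, Bowtie 0.12.7 aligned the reads. The authors deposited each cluster with its position on FlyBase release 5, per the file headers, and a signed score of unknown scale, above 0 in clusters named enriched. The cluster caller, its threshold, the use of the inputs and the way replicates were combined in the whole-series list were given by no source used here. No list holds counts, so depth is unknown and could change both number and width of calls.

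Enriched clusters were read from 3 lists, and depleted ones were set aside. A base counted as covered once, however many clusters held it, over lengths from the headers. Overlap meant at least 1 base, and intervals are Wilson 95%. Scores were used only as ranks within a list. Members and lists were chosen with earlier results of these data known. Regions were named by rule: all shared sites of the Het scaffolds and U, the 5 widest of chromosome 4, and per arm end the nearest and the 3 widest, with the longest empty stretches, the widest clusters found alone (per class and replicate), the 5 highest whole-series scores and the widest whole-series clusters. The rest of the arms was compared within each replicate. Alternatives were clusters at or above the median score, clusters under 1 kb apart joined, overlap of 50% (one-way or reciprocal), a 1 Mb window, distal arms without 2R, each replicate left out and the whole-series list. Those without 3R, and those for the wider replicate, were chosen after seeing the data. The overlap and site steps were tested on altered copies of the replicate 1 list with known answers. The coverage step was tested against a base-by-base count on chromosome 4 of that list. Python 3.11.15, numpy 2.4.6, pandas 2.3.3, statsmodels 0.14.6 and matplotlib 3.10.9 were used.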

Additional observations from a re-analysis of the deposited data

Results flagged for a closer look

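The 3R end was covered 1.84 percentage points more than the rest of 3R as a mean, higher in both replicates, while the ends of X, 2L and 3L were lower than the rest of their arms in both. The opposite directions were not tested against each other, and the 2 Mb windows are equal in length but not in how far each assembled arm reaches toward its centromere.

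Clusters named depleted entered no comparison, and the whole-series list held 6 of its 15 in these sequences. Replicate 1 held 3 of its 14 there, and replicate 2 held 1 of its 4. They are given because no depleted cluster is described above. Whether the number of depleted clusters is high was not tested. The whole-series one on chromosome 4, from 1144560 to 1146116, lay entirely inside an enriched cluster of replicate 2. Those on 2L from 21344288 to 21346056 and on 3R from 470188 to 471700 lay over 93.2% and 90.1% of their length in enriched clusters of replicate 2, and that on X from 21481310 to 21483056 lay entirely inside one of replicate 1. The 2L site overlapped a depleted cluster of replicate 1, from 21344279 to 21345945. The X site from 21487424 to 21489126 also overlapped one of replicate 1, and was in no enriched cluster. The last, on X from 20987774 to 20989136, was in none either.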

How the results depend on the processing

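Of 152 recomputed values, 102 moved by less than their spread or interval and 50 moved by more. For counts of shared sites the criterion was a fixed ratio to the reported count instead. A change of sign was not scored. The mean width difference at the arm ends was 88.5 bp as reported. It was negative under every alternative, such as -68 bp in the whole-series list, except that without replicate 2, at 404 bp. The 32 that leave out a replicate cannot exceed the spread of 2, so they are no sign of stability. The cause of each move was not tested.

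With only clusters at or above the median score, the covered share was 3.02% on chromosome 4, 0.0736% on the Het scaffolds, 0.151% on U and 9.17% at the arm ends. The ratio to the distal arms was then 0.00356 on the Het scaffolds, 0.00717 on U and 0.437 at the ends, against 0.0138, 0.00874 and 0.456 as reported. Width differences became -4102, -3858, -4577 and -975 bp in that order of classes. Spacing became 64.7 kb on chromosome 4, 565 kb on U and 13.1 kb at the ends. Shared members became 100% of 7 replicate 1 clusters on chromosome 4 and of 1 on the Het scaffolds, 25% of 4 replicate 2 clusters on the Het scaffolds and 93.8% of 96 replicate 2 clusters at the ends. Shared sites numbered 7 on chromosome 4, 1 on the Het scaffolds and 90 at the ends. Sites wider in replicate 2 were 0% on the Het scaffolds, from 1 site, and 37.5% on the distal arms.

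With clusters under 1 kb apart joined, the ends were covered at 12.7%, and width differences were -2607 bp on chromosome 4, -2832 bp on the Het scaffolds and -2901 bp on U. Spacing was 22.4 kb on chromosome 4 and 9.06 kb at the ends, and 29.4% of distal sites were wider in replicate 2.

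In the whole-series list the covered share was 0.462% on the Het scaffolds, 0.340% on U and 13.8% at the ends, the ratio for U 0.0111, and the width difference on chromosome 4 -1116 bp. Its spacing was 12.6 kb on chromosome 4, 166 kb on the Het scaffolds and 3.08 kb at the ends. Under 50% reciprocal overlap, shared members were 50.0% of replicate 1 on chromosome 4, and 74.1% and 79.7% at the ends.

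With a window of 1 Mb the ends had a covered share of 8.57%, a ratio of 0.319, a width difference of -797 bp and 61 shared sites. Without 3R they had 6.93%, 0.255, a spacing of 6.94 kb, 83.7% shared members of replicate 2 and 81 shared sites. No paired analysis was possible because values of the input samples, which share the replicate numbers, were not analysed here.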
